A study of Mus musculus with 12 samples.

Results

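The adhesion genes described here are 10 genes whose products hold epithelial cells together: the cadherins Cdh1 and Cdh2, their partner Ctnnb1, the tight junction genes Cldn1, Cldn2, Cldn3, Ocln and Tjp1, and the gap junction genes Gjb1 and Gjb2. Every probe set annotated to 1 of these symbols alone was taken, which gave 22 of the 45037 probe sets on the array that measure genes, and 10 of the 18193 genes they name. The genes were chosen by a measured value, the Cdh1 signal, which was lower in cadmium-exposed than in control males, so all values of that comparison are given as a description without a test, and so are the differences of Cdh1 between the sexes.

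Hepatic RNA of C57BL/6J mice was measured on 12 Affymetrix Mouse Genome 430 2.0 arrays, with 3 biological replicates in each of 4 groups: LDC males, control males, LDC females and control females. LDC stands for low-dose cadmium, which was cadmium chloride at 100 nM in the drinking water. Dams drank it from before mating, their offspring kept it after weaning, and livers were taken at 30 weeks of age. Control mice received plain water over the same period, and the labels name no litters, so the tests treat the mice as independent.

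Cadherins bind their like on the next cell, and inside the cell they hold beta-catenin, the product of Ctnnb1, which also carries Wnt signals to the nucleus. Hepatocytes carry both E-cadherin (Cdh1) and N-cadherin (Cdh2), with E-cadherin strongest around the portal vein and also present in bile duct cells. Claudins and occludin seal the bile canaliculus between neighbouring hepatocytes, ZO-1 (Tjp1) ties them to actin, and the connexins encoded by Gjb1 and Gjb2 form channels that let small molecules pass from cell to cell.

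Cldn1 and Cldn2 were the 2 members called between the sexes through the brightest probe set of the gene in both exposed and control mice, so their promoters are shown. Each run spans 250 bases before to 50 bases after the RefSeq gene start on GRCm38.p6, read along the gene. Cldn1 lies on the minus strand at chr16:26371790-26372089 and Cldn2 on the plus strand at chrX:139800558-139800857. Capitals mark the letters TATAAA or GGGCGG, searched on both strands (TTTATA and CCGCCC on the other strand), which do not overlap here.
Cldn1: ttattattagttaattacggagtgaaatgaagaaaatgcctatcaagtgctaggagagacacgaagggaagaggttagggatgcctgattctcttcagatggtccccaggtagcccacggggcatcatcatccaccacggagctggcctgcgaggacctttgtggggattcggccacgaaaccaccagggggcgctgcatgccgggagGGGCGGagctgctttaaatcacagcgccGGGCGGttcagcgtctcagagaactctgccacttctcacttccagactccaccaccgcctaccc
Cldn2: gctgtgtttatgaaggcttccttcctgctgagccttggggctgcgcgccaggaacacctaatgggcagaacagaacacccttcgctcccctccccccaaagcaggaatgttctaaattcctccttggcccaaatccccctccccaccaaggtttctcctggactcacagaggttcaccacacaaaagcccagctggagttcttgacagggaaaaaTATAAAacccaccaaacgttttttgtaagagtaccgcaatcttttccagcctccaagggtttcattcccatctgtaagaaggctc
The Cldn1 window held GGGCGG at 42 and at 14 bases before the start and no TATAAA, and the Cldn2 window held TATAAA at 35 bases before the start and no GGGCGG. Among 32851 RefSeq promoter windows of this length, 13.6% held TATAAA and 35.7% held GGGCGG in either orientation. These matches are a description of the letters and not of binding.

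The values are MAS 5.0 signals on a linear scale, so levels are compared between groups for 1 probe set and never between probe sets. Of the 22 probe sets, 20 passed the filter on dim signals (a mean log2 signal of at least 5.6, or 48.6 on the linear scale). The other 2 both belong to Cldn1, and on them no array exceeded a signal of 93. A gene is given by its brightest probe set unless stated. The liver label matched the signals, since the summed signal of 10 hepatocyte markers lay between 396644 and 477467 on all arrays, and so did the sex labels: Xist was at 72.3 to 134 on the male arrays and at least 16258 on the female arrays, and the Y-linked gene Eif2s3y reached 2234 or more in males and at most 9.73 in females. Arrays of the same group correlated at r = 0.914 to 0.941 and arrays of different groups at r = 0.872 to 0.941 across probe sets, and no array stood apart.

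Cdh1, which encodes E-cadherin, had the largest difference in males among the member probe sets that passed the filter. Its signal was 458, 618 and 630 in LDC males, against 1543, 1327 and 1913 in control males. The LDC males averaged 569.0 ± 96 and the control males 1595 ± 296 (SD, n = 3 each), a log2 difference of -1.49, or 2.8-fold lower in LDC males, which is the difference that chose these genes. LDC females had signals of 1442, 1030 and 924, against 1240, 1263 and 1052.5 in control females. All 3 LDC male arrays thus lay below the other 9, while the LDC and control females overlapped. In a bulk liver sample, fewer cells that express a gene and less of its RNA per cell cannot be told apart.

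**Figure D1:**
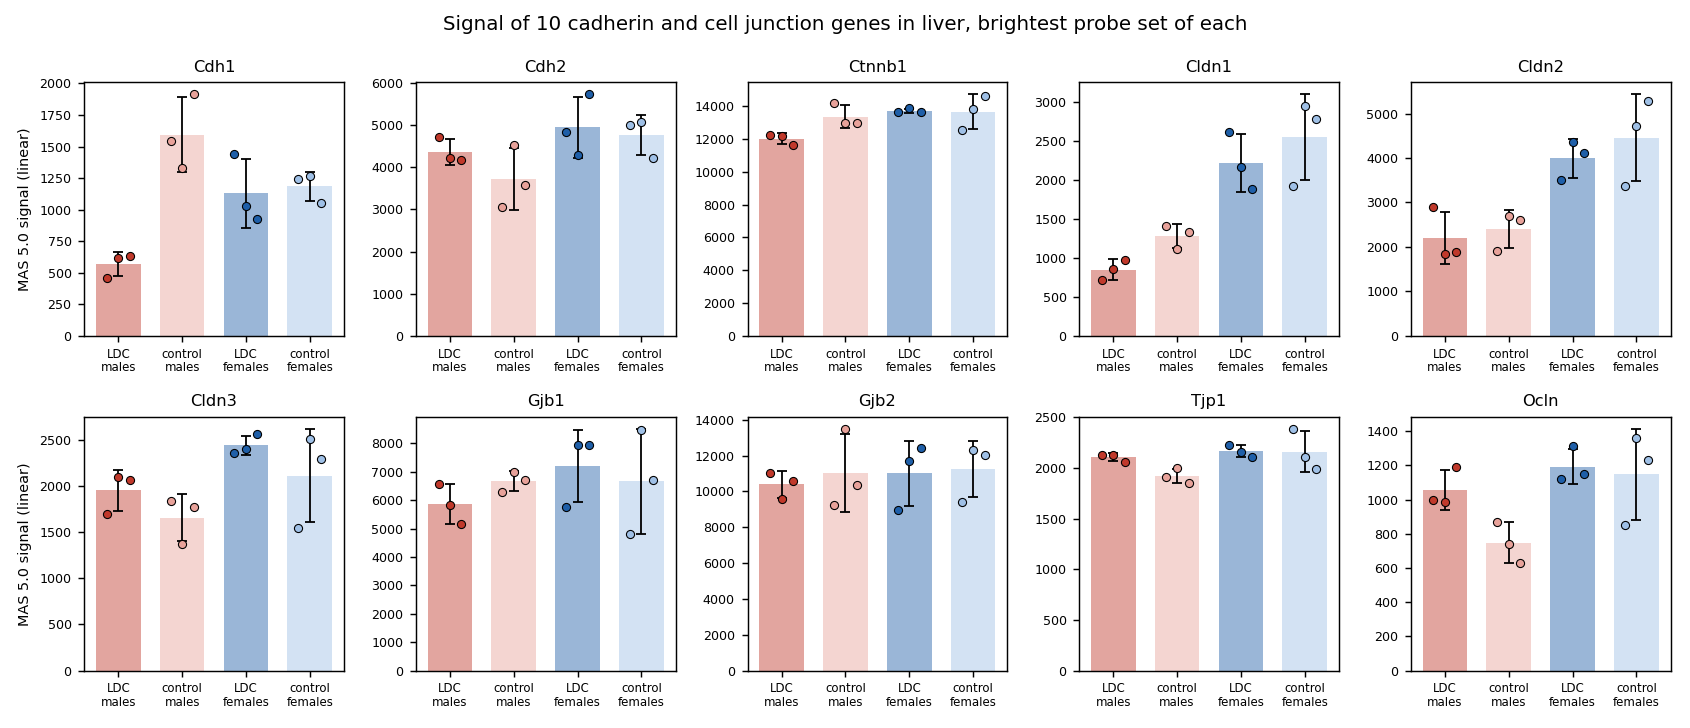
MAS 5.0 signal on a linear axis for the brightest probe set of each of the 10 genes, with 1 point per array, bars at the mean and error bars of 1 SD (n = 3). The Cdh1 signals of LDC males, 458 to 630, lie below every other array, and the Cldn1 and Cldn2 signals of males lie below those of females in both exposures.

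Cdh1 in males was lower together with a marker of bile duct cells, which also carry E-cadherin. The 10 bile duct markers on the array summed to 953 to 1132 in LDC males and 1615 to 2954 in control males. That gap came from Onecut1, a transcription factor also present in hepatocytes, which was at 471, 273 and 331 in LDC males and at 711, 1016 and 2204 in control males. The other 9 markers summed to 622 to 747 in LDC males and 736 to 904 in control males, which overlap, and 4 of the 10, Krt7, Krt19, Cldn7 and Cftr, were under the filter on dim signals. Krt7, a bile duct keratin among those 4, averaged 10.6 ± 5.89 in LDC males and 93.6 ± 37.5 in control males (SD, n = 3 each). The remaining markers overlapped, with log2 differences above 0 for Cldn7 (0.52), Krt23 (0.19), Sox9 (0.18) and Cldn4 (0.14). They were below 0 for Epcam (-1.23), Cftr (-1.2), Krt19 (-0.81) and Prom1 (-0.29). The median over the 6 markers tested was -0.07. The part of bile duct cells in the Cdh1 difference was not tested.

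**Figure D2:**
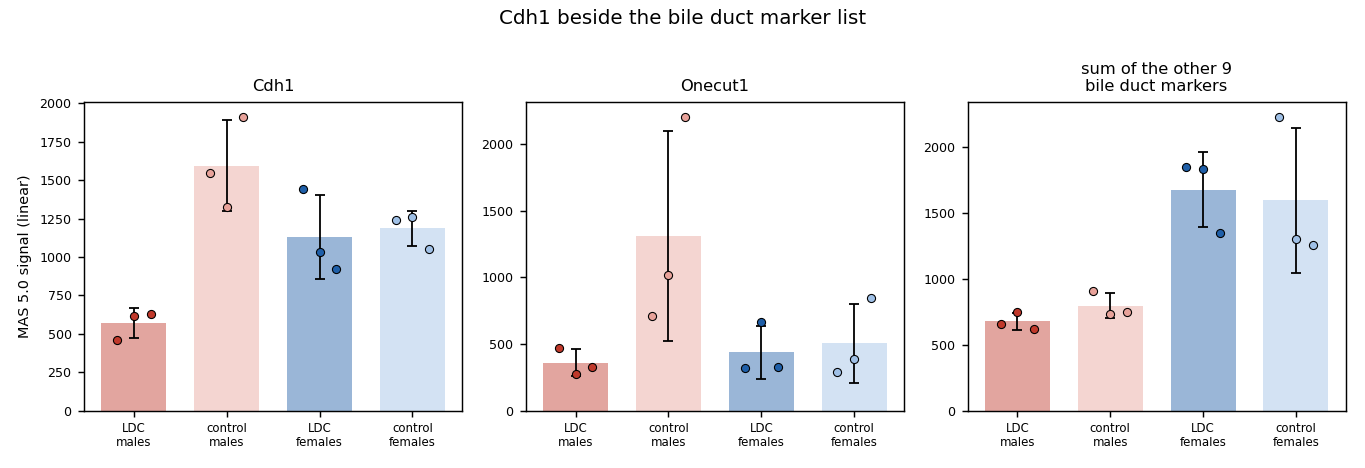
MAS 5.0 signal on a linear axis for Cdh1, for Onecut1 and for the sum of the other 9 bile duct markers, with 1 point per array, bars at the mean and error bars of 1 SD (n = 3). Cdh1 and Onecut1 separate LDC from control males without overlap, while the sum of the other 9 markers, 622 to 747 in LDC males and 736 to 904 in control males, does not.

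By sum and median, genes of the portal zone, where E-cadherin is strongest, did not share the separation of Cdh1. The 13 portal vein genes on the array summed to 232277 to 238195 in LDC males and 214356 to 251710 in control males, with a median log2 difference of 0.07. Of the 13, 2 were higher without overlap and 1 was lower, where 8.62% of all probe sets tested separated upward and 7.92% downward. The lower one was Cyp2f2, at 29782 to 31148 in LDC males and 32216 to 35967 in control males (log2 difference -0.14). The higher ones were Pck1, at 32861 to 36556 in LDC males and 24931 to 31156 in control males (0.28), and Ctsc. Ctsc was at 7081 to 7590 in LDC males and 5080 to 6875 in control males (0.30). The hepatocyte markers summed to 420958 to 432606 in LDC males and 423262 to 477467 in control males. Markers of macrophages and Kupffer cells summed to 22274 to 32207 in LDC males and 15233 to 16413 in control males, with 6 of 9 genes higher without overlap, against 8.62% of all probe sets tested. Markers of lymphocytes and neutrophils summed to 3182 to 3534 in LDC males and 1565 to 1700 in control males. That gap lay in 3 neutrophil genes, S100a8, S100a9 and Ngp, while the lymphocyte genes overlapped. The stellate cell and fibroblast sums did not overlap, at 22320 to 22714 in LDC males and 16677 to 21502 in control males, but only the bright genes Dcn and Colec11 of 10 were higher without overlap and the median log2 difference was 0.08. The pancreatic acinar sum, 1119 to 1756 in LDC males and 2162 to 2623 in control males, was mostly Cela1, which averaged 1106 ± 158 in LDC males and 2205 ± 256 in control males, and Cpa1, under the filter, separated in the other direction. Sums overlapped for endothelial markers, at 9518 to 10849 in LDC males and 9172 to 10005 in control males, and for adipocyte markers, at 994 to 1431 in LDC males and 1223 to 1610 in control males. The Gapdh ratio of 3' to 5' signal, a sign of RNA integrity, was 0.684 to 0.763 in LDC males and 0.766 to 0.836 in control males, and the same ratio for actin overlapped, at 1.85 to 1.96 in LDC males and 1.76 to 1.98 in control males. The part of these differences in the values of the members was not tested.

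The known repressors of Cdh1 were looked at beside it in males, also as a description. Of 16 measured genes that regulate E-cadherin or cut it from the cell surface, 2 were higher in LDC males without overlap and 0 were lower, with a median log2 difference of -0.06. Over all probe sets tested, 8.62% were higher without overlap and 7.92% were lower, so nothing is read from that count. Snai2, a transcriptional repressor of Cdh1, averaged 522 ± 184 in LDC males and 278 ± 104 in control males (SD, n = 3 each), and Tcf3, another repressor, averaged 314 ± 119 in LDC males and 226 ± 9.57 in control males. Snai1, Zeb1, Zeb2 and Twist1, which repress Cdh1 as well, overlapped between LDC and control males. In females Snai2 averaged 892 ± 250 in LDC and 397 ± 272 in control mice, with overlapping arrays (log2 difference 1.39, limma, adjusted p = 0.349). The Snai2 probe set is of a type (_x_at) in which some probes may match other transcripts.

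Among all named genes, those whose log2 signal followed Cdh1 most closely over the 12 arrays were Gfer (r = 0.949), Prpf39 (0.913), Camsap1 (0.893), Foxp1 (0.891) and Ern1 (0.883). These correlations describe 12 arrays of 4 groups and carry no p. They include the male arrays whose Cdh1 values chose the genes, so nothing is read from the ranking. Gfer, which encodes a sulfhydryl oxidase known as augmenter of liver regeneration, averaged 2671 ± 94.8 in LDC males and 3347 ± 109 in control males, and 3207 ± 214 in LDC females and 3160 ± 97.4 in control females (SD, n = 3 each). Ern1, the endoplasmic reticulum stress sensor IRE1 alpha, averaged 2049 ± 73.3 in LDC males and 2917 ± 294 in control males, and 2848 ± 193 in LDC females and 2854 ± 443 in control females. Within the 10 genes, Ctnnb1 (r = 0.579) and Cldn1 (r = 0.571) had the highest correlations with Cdh1 and Ocln the lowest (r = -0.392). Between control males and control females, Cldn1 (log2 difference -0.97) and Cdh1 (0.42) had opposite signs.

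The members varied to different degrees within a group. Among the brightest probe sets, Ctnnb1 and Tjp1 had the tightest replicates, with a coefficient of variation (SD over mean, n = 3) of 0.933% to 7.70% for Ctnnb1 and 1.91% to 9.34% for Tjp1 over the 4 groups. For Cdh1 it was 16.9% in LDC males, 18.6% in control males, 24.2% in LDC females and 9.75% in control females. Gjb1 reached 27.6%, in control females, where its arrays were at 4804, 8480 and 6711, and Cldn2 reached 26.8%, in LDC males.

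The other 9 members differed less from control in LDC males than Cdh1 did, and in both directions. Over the 10 genes the log2 differences ran from -1.49 to 0.51 with a median of -0.10, against a median of 0.00 over all 27022 probe sets tested. Of the 20 probe sets tested, 4 had all LDC males below all control males and 2 had them all above, where 7.92% of all probe sets tested separated downward, 8.62% upward and 16.5% in either direction. The 4 lower ones were those of Cdh1, Ctnnb1 with 2 probe sets and Cldn1, and the 2 higher ones were those of Tjp1 and Ocln. Since the choice of these genes used this comparison, nothing is read from that count.

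The second cadherin did not share the values of Cdh1. Cdh2 had signals of 4708, 4210 and 4161 in LDC males, against 3061, 4523 and 3570 in control males, a log2 difference of 0.25 with overlapping arrays, and its second probe set overlapped too. Ctnnb1 was at 12217, 12160 and 11606 in LDC males, against 14192.5, 12939.5 and 12939 in control males, and although these do not overlap the log2 difference was only -0.15. Its partner Ctnna1, alpha-catenin, averaged 4690 ± 48.5 in LDC males and 4706 ± 338 in control males (SD, n = 3 each). Genes that beta-catenin switches on around the central vein, such as Glul and Axin2, had a median log2 difference of -0.01 over 17 genes, with 2 higher and 1 lower without overlap. Over all probe sets tested, 16.5% separated in either direction.

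Cldn1 also separated downward in males. Its signal was 718, 858 and 974 in LDC males, against 1406, 1111 and 1331 in control males, a log2 difference of -0.60. The second Cldn1 probe set had a log2 difference of -0.70, but its arrays overlapped, at 243.5, 455 and 262 in LDC males and 436, 418 and 678 in control males. Of the 2 dim Cldn1 probe sets under the filter, 1 ran the other way, averaging 69.1 in LDC males and 22.0 in control males, a log2 difference of 1.69 without overlap. Cldn2 and Cldn3 overlapped in males on every probe set, with log2 differences of -0.14 for Cldn2 and 0.24 for Cldn3.

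Occludin and ZO-1 lay in the opposite direction to Cdh1 in males. Ocln had signals of 996.5, 984 and 1192 in LDC males, against 872, 741 and 631 in control males, a log2 difference of 0.51, while its dimmer probe set overlapped. Tjp1 had 2130.5, 2126 and 2059 in LDC males, against 1914.5, 1996 and 1853 in control males, a log2 difference of 0.13. The connexins of the hepatocyte gap junction overlapped. Gjb1 was at 6575, 5816 and 5181 in LDC males, against 6296, 6996 and 6701 in control males (log2 difference -0.19), and Gjb2 at 11038, 9555 and 10597 in LDC males, against 9241, 13479 and 10358 in control males (-0.07). Of 27 tight junction genes tested that are not members, 2 were higher and 1 lower in LDC males without overlap, with a median log2 difference of -0.04. Of all probe sets tested, 8.62% separated upward and 7.92% downward. Marveld1, which encodes a membrane protein of the MARVEL family, was among the higher, at 2793 ± 213 in LDC males and 1322 ± 269 in control males. The lower one was Magi3, at 1061 ± 52.9 in LDC males and 1281 ± 116 in control males (SD, n = 3 each). These values are again a description.

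In females no member was called changed by LDC. With limma, 0 of the 20 probe sets tested passed an adjusted p of 0.05, where 0.122% of all probe sets tested did, and 0 of the 20 had an unadjusted p under 0.05, where 9.01% of all did. The methods' t-test also called 0 of 20. So did a criterion that asks for a 2-fold change beside an unadjusted p under 0.05, which 2.18% of all probe sets tested met. The arrays of LDC and control females overlapped for all 20, against 13.9% of all probe sets tested that separated. Over the 10 genes the log2 differences ran from -0.19 to 0.24, with a median of 0.01 for the members and 0.01 for all probe sets tested.

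The intervals show what size of change the female arrays could still hold. For Cdh1 the log2 difference was -0.09 (95% interval -0.50 to 0.32, limma, adjusted p = 0.931). Whether the Cdh1 difference differed between the sexes was not tested, because its male values chose the genes. The widest downward intervals were those of Cldn1, at -0.19 (-0.57 to 0.20), and Cldn2, at -0.14 (-0.56 to 0.28), and the narrowest was that of Ctnnb1, at 0.01 (-0.16 to 0.18).

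The remaining members had differences of similar size in females. Cldn3 had the highest difference, 0.24 (-0.12 to 0.60), with 2358, 2399 and 2556 in LDC females, against 1542.5, 2502 and 2285 in control females, followed by Gjb1 at 0.14 (-0.24 to 0.51) and Ocln at 0.08 (-0.30 to 0.46). Cdh2 was at 0.05 (-0.25 to 0.35), Tjp1 at 0.01 (-0.21 to 0.22) and Gjb2 at -0.03 (-0.36 to 0.29), and the adjusted p of the 10 genes ran from 0.726 to 0.99 (limma). In these arrays the markers of lymphocytes and neutrophils summed to 916 to 1448 in LDC females and 3506 to 6133 in control females. The genes called among them were the 3 neutrophil genes S100a8, S100a9 and Ngp, all lower in LDC females. The lymphocyte genes were mixed, with Cd3g lower and Cd8a higher in LDC females without overlap. Markers of macrophages and Kupffer cells overlapped, at 7717 to 38018 in LDC females and 18708 to 49959 in control females. The first control female had the lowest signal of its group for 17 of the 20 member probe sets, against 34.5% of all probe sets tested.

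**Figure D3:**
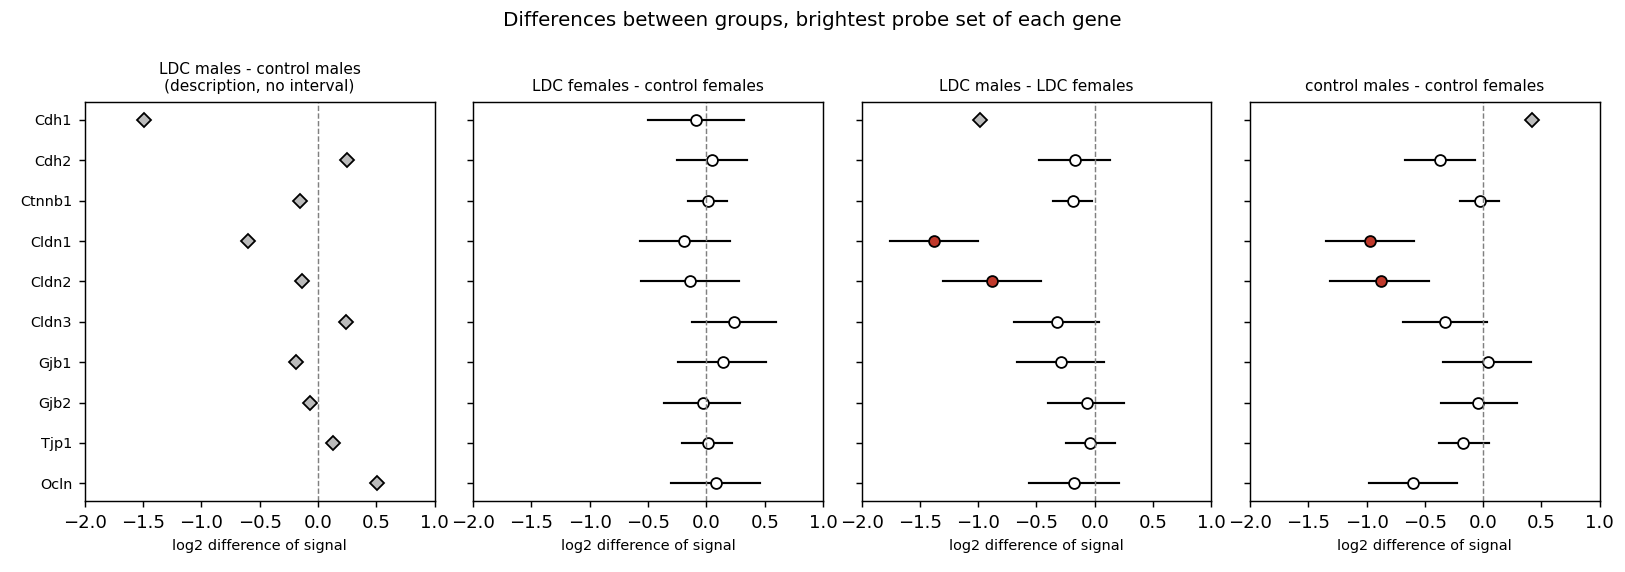
Log2 difference of the MAS 5.0 signal for the brightest probe set of each gene in 4 comparisons, with 95% intervals from limma. Filled circles passed an adjusted p of 0.05, open circles did not, and grey diamonds are descriptions without an interval because the choice of genes used them. In females all intervals span 0, and between the sexes Cldn1 and Cldn2 passed in both exposures.

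Between the sexes Cldn1 and Cldn2 were lower in males. Among LDC mice, 3 of the 19 probe sets tested other than that of Cdh1 passed an adjusted p of 0.05 with limma, all lower in LDC males, where 6.29% of all probe sets tested passed in either direction and 3.29% were lower. Among control mice 2 of 19 passed, both lower in control males, where 7.73% of all passed in either direction and 4.14% were lower. The comparisons answer whether males and females differ at these genes with cadmium and without it, and they share no arrays.

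Cldn1, a claudin of the hepatocyte canaliculus whose promoter window above holds GGGCGG at 42 and 14 bases before the start, had the largest difference among the members tested between the sexes. Its signal was 718, 858 and 974 in LDC males, against 2612, 2161 and 1878 in LDC females, a log2 difference of -1.38 (-1.76 to -1.0), or 2.6-fold lower in LDC males (limma, adjusted p = 0.000263). In control males it was 1406, 1111 and 1331, against 1915, 2938 and 2774.5 in control females, a log2 difference of -0.97 (-1.35 to -0.59), or 1.96-fold lower in control males (limma, adjusted p = 0.0042). Males and females did not overlap in either exposure. Both calls held without each of the 12 arrays in turn, with log2 differences of -1.49 to -1.26 in LDC mice and -1.16 to -0.85 in control mice. The dimmer Cldn1 probe set had the same sign and was not called, at -0.88 in LDC mice (limma, adjusted p = 0.0902) and -0.52 in control mice (limma, adjusted p = 0.318). Whether the sex difference of Cldn1 changed with exposure was not tested, since that comparison contains the male difference.

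Cldn2, which forms pores for cations and water in leaky epithelia and has TATAAA in the promoter window above, was also lower in males. LDC males had signals of 2887.5, 1846 and 1881, against 3506, 4353 and 4108 in LDC females, a log2 difference of -0.88 (-1.30 to -0.46), or 1.84-fold lower in LDC males (limma, adjusted p = 0.0145). Control males had 1907, 2691 and 2601, against 3379, 4719 and 5272 in control females, a log2 difference of -0.88 (-1.31 to -0.46), or 1.85-fold lower in control males (limma, adjusted p = 0.0131). The sexes did not overlap in either exposure, but the calls were less firm than those of Cldn1. Among LDC mice the adjusted p was 0.0672 without LDC female 2, 0.0521 without LDC female 3, 0.0721 without LDC male 2 and 0.0714 without LDC male 3, with log2 differences of -0.86 to -0.77. Among control mice it was 0.0536 without control female 3 (-0.75) and 0.0539 without control male 1 (-0.73). The dimmer Cldn2 probe set was not called, at -0.62 in LDC mice (limma, adjusted p = 0.233) and -0.42 in control mice (limma, adjusted p = 0.41).

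Cldn3, a sealing claudin of liver and gut, is measured by 4 probe sets that disagreed in their calls. The third of them in brightness was at 1423, 1302 and 1326 in LDC males, against 2076, 2531 and 2603 in LDC females, a log2 difference of -0.83, or 1.77-fold lower in LDC males (limma, adjusted p = 0.0122). The other 3 were not called in LDC mice, with log2 differences of -0.44 to -0.30 and adjusted p of 0.186 to 0.585, and the call was lost without LDC female 2 (adjusted p = 0.0544) or LDC female 3 (adjusted p = 0.0543). In control mice all 4 were lower in males, by log2 differences of -0.47 to -0.33, and none was called (limma, adjusted p from 0.135 to 0.41). Some probes of the 2 sets named _x_at may match other transcripts.

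**Figure D4:**
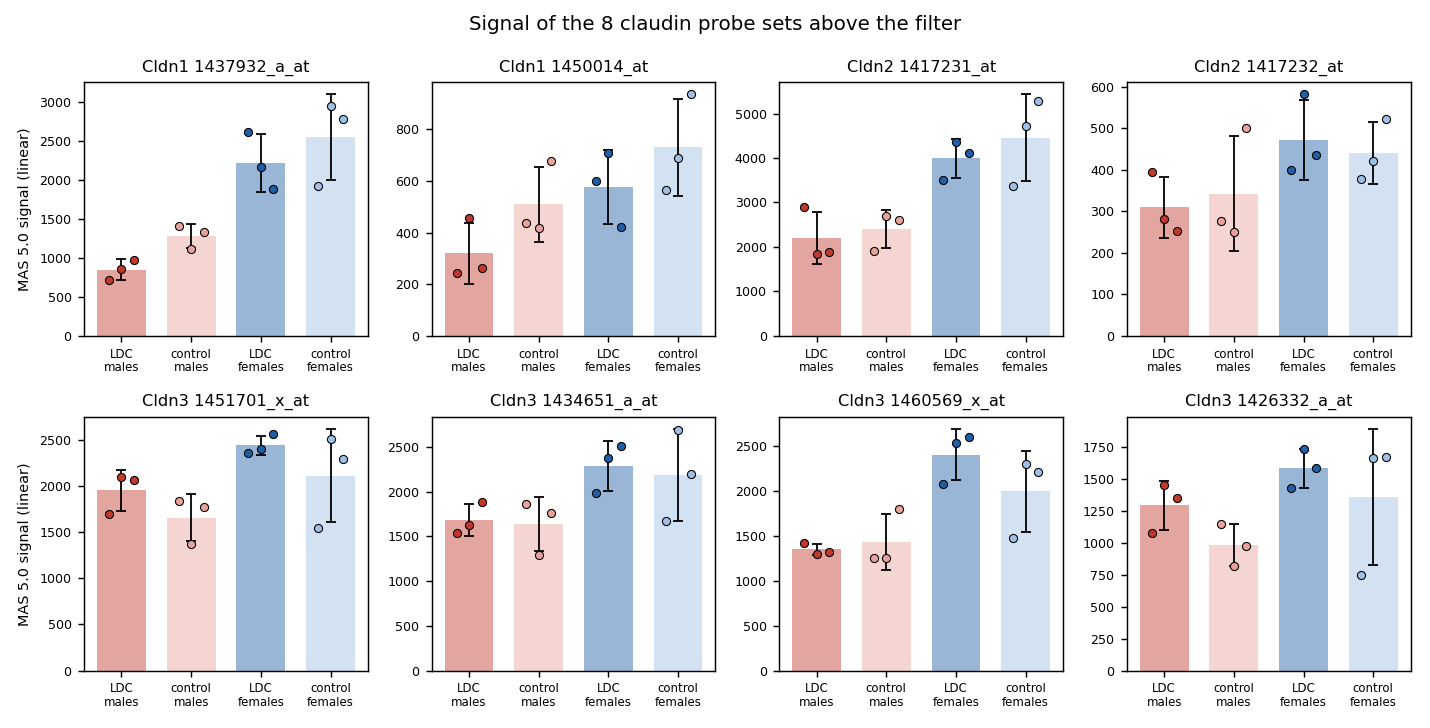
MAS 5.0 signal on a linear axis for the 8 claudin probe sets above the filter, with 1 point per array, bars at the mean and error bars of 1 SD (n = 3). Male means lie below female means in both exposures on all 8, and the sexes separate without overlap in both exposures only on the brightest probe sets of Cldn1 and Cldn2.

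Bile duct markers also differed between the sexes in their sum, through 1 gene. Without Onecut1 they summed to 622 to 747 in LDC males and 1347.5 to 1851 in LDC females, and to 736 to 904 in control males and 1255 to 2231 in control females. Prom1, a membrane glycoprotein of bile duct and progenitor cells, accounted for this, at 39.6 to 168 in LDC males and 841 to 1066 in LDC females, and at 75.5 to 123 in control males and 670 to 1381 in control females. The sums of the remaining 8 markers overlapped, at 537 to 621 in LDC males and 507 to 965 in LDC females, and at 613 to 794 in control males and 519 to 850 in control females. Single markers could still separate. Of the 6 tested, Prom1 included, 1 was higher and 2 lower in control males, where 24.5% of all probe sets tested separated. Under the filter, Krt7 was at 6.54 to 17.4 in LDC males and 38.8 to 114 in LDC females, while Krt19, Cldn7 and Cftr overlapped there. Stellate cell and fibroblast markers summed to 22320 to 22714 in LDC males and 24037 to 27209 in LDC females, and to 16677 to 21502 in control males and 24460 to 37093 in control females. Markers of lymphocytes and neutrophils differed in opposite directions, at 3182 to 3534 in LDC males and 916 to 1448 in LDC females, and at 1565 to 1700 in control males and 3506 to 6133 in control females. The genes called among them in each exposure were the neutrophil genes S100a8, S100a9 and Ngp. In control mice alone the sums also separated for macrophages and Kupffer cells, at 15233 to 16413 in males and 18708 to 49959 in females. The same held for endothelial cells, at 9172 to 10005 in males and 10209 to 12380 in females. It also held for pancreatic acinar cells, at 2162 to 2623 in males and 926 to 1684 in females. Adipocyte markers, 3 of 4 under the filter, separated there too, at 1223 to 1610 in males and 635 to 1177 in females. Of the 3 red blood cell markers only Alas2 passed the filter, and it averaged 1940.5 ± 516 in LDC males and 486 ± 96.6 in LDC females, and 3009 ± 702 in control males and 407 ± 83.3 in control females (SD, n = 3 each). The part of these cell types in the claudin differences was not tested.

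The other members were not called between the sexes. Ocln came nearest, at -0.60 (-0.98 to -0.22) in control mice (limma, adjusted p = 0.0541), with 872, 741 and 631 in control males, against 852, 1361 and 1230 in control females. The first control female lay inside the range of the control males here, and without it Ocln was called (log2 difference -0.80, limma, adjusted p = 0.011), as it was without control male 1 (-0.72, adjusted p = 0.0438). In LDC mice Ocln was at -0.18 (-0.56 to 0.21). Cdh2 was at -0.17 (-0.48 to 0.13) in LDC mice and -0.37 (-0.67 to -0.07) in control mice (limma, adjusted p = 0.14), and in control mice it was called only without control male 2 (-0.52, adjusted p = 0.0455). Cldn3 by its brightest probe set was called in control mice only without control female 1 (-0.54, adjusted p = 0.0467), and without that array 3 of the 4 Cldn3 probe sets were called.

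The catenin, ZO-1 and connexin genes were not called between the sexes either. Ctnnb1 was at -0.19 (-0.36 to -0.02) in LDC mice (limma, adjusted p = 0.192) and -0.03 (-0.20 to 0.14) in control mice. On this Ctnnb1 probe set and the next in brightness (-0.22, limma, adjusted p = 0.167), all LDC males lay below all LDC females. Tjp1 was at -0.04 (-0.25 to 0.17) in LDC mice and -0.17 (-0.38 to 0.05) in control mice. Gjb1 was at -0.29 (-0.67 to 0.08) in LDC mice and 0.04 (-0.34 to 0.41) in control mice, and Gjb2 at -0.07 (-0.40 to 0.25) in LDC mice and -0.04 (-0.36 to 0.29) in control mice. Cdh1, as a description, was lower in LDC males than in LDC females by a log2 difference of -0.98 and higher in control males than in control females by 0.42, with no overlap of arrays in either.

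By direction, all 19 probe sets tested were lower in LDC males than in LDC females, where 52.3% of all probe sets tested were. Of the 19, 9 separated without overlap, all lower in LDC males, against 14.4% of all probe sets tested that separated downward. In control mice 16 of 19 were lower in males, where 51.5% of all were, and 3 of 19 separated without overlap, where 24.5% of all did: Cldn1 and Cldn2 downward and the dimmest Ctnnb1 probe set upward. The median log2 difference over the 9 genes was -0.19 in LDC mice and -0.33 in control mice, against -0.02 over all probe sets tested in each. Probe sets of 1 gene share their target, so these counts rest on 9 genes.

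Other junction genes gave a wider view from lists of adherens, tight and gap junctions and desmosomes. Of 54 genes tested in them, limma called 0 in LDC against control females, and the methods' t-test called 0. An unadjusted p under 0.05 was met by 5 of the 54 (9.3%), where 9.01% of all probe sets tested met it. Between the sexes 1 was higher and 4 lower in LDC males than in LDC females, and 0 were higher and 5 lower in control males than in control females, where 6.29% of all probe sets tested were called in LDC mice and 7.73% in control mice. The methods' t-test called 1 of the 54 in each exposure, Ctnna1 in LDC mice, which limma did not call, and Dsp in control mice. Of the 8 genes tested in the desmosome list, Dsp and Dsg2 were called in both exposures, lower in males. In LDC mice 4 of the 8 separated downward in males, where 14.4% of all probe sets tested did. The desmosomal cadherin gene Dsc2 separated upward, at 1935 ± 365 in LDC males and 1409 ± 91.1 in LDC females. It was not called (log2 difference 0.44, limma, adjusted p = 0.125). Dsp, the desmoplakin that anchors keratin, averaged 2483.5 ± 169 in LDC males and 3318 ± 380 in LDC females (log2 difference -0.41, limma, adjusted p = 0.0234), and 2302.5 ± 42.7 in control males and 3898 ± 82.3 in control females (-0.76, limma, adjusted p = 0.000329, SD, n = 3 each). Dsg2, a desmosomal cadherin, was at -0.50 in LDC mice (limma, adjusted p = 0.0367) and -0.80 in control mice (limma, adjusted p = 0.00194). In LDC mice the call of Dsp was lost without any of 4 arrays (LDC females 1 and 3, LDC males 1 and 2, adjusted p of 0.0571 to 0.115) and that of Dsg2 without any of 5 (LDC females 2 and 3 and each LDC male, adjusted p of 0.0792 to 0.158).

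Of 27 tight junction genes that are not members, 3 were called in LDC mice and 2 in control mice between the sexes. Of all probe sets tested, 6.29% were called in LDC mice and 7.73% in control mice. Magi3, a membrane scaffold, averaged 1061 ± 52.9 in LDC males and 2119 ± 362 in LDC females (log2 difference -0.98, limma, adjusted p = 0.000644), and Marveld1 averaged 2793 ± 213 in LDC males and 1354 ± 177 in LDC females (1.05, adjusted p = 0.00104, SD, n = 3 each). Tjp3, which encodes ZO-3, was at -1.52 in LDC mice (limma, adjusted p = 0.0128) and was lost without LDC female 1, LDC female 2 or LDC male 1 (adjusted p of 0.0535 to 0.0631). In control mice Ildr2, an angulin of tricellular junctions, was at -1.01 (limma, adjusted p = 0.0148, and 0.0658 without control male 2) and the endothelial claudin Cldn5 at -0.94 (limma, adjusted p = 0.023), which was lost without control female 1 or 2 or control male 1 or 2 (adjusted p of 0.0503 to 0.0801). Of 16 adherens junction genes, only Jup, which encodes plakoglobin, was called, at -0.90 in control mice (limma, adjusted p = 0.0193), and its call was lost without control female 2 (0.0537) or control male 3 (0.0638). None of the 3 gap junction genes tested was called. The probe sets of Marveld1, Ildr2 and Ctnna1, and that of the central vein gene Slc13a3, are also of the _x_at type, in which some probes may match other transcripts.

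The genes that act on E-cadherin and those of the 2 liver zones completed the lists. Of all probe sets tested, limma called 6.29% between the sexes in LDC mice (3.29% lower in males) and 7.73% in control mice (4.14% lower in males). Of 16 E-cadherin regulators, limma called 1 in LDC mice, the tyrosine kinase gene Fer, at 270 ± 50.7 in LDC males and 594 ± 35.9 in LDC females (SD, n = 3 each, log2 difference -1.15, adjusted p = 0.00507), and 0 in control mice. Of 17 central vein genes, 3 were lower in LDC males than in LDC females, namely the Wnt inhibitor Notum (-0.91, limma, adjusted p = 0.0127), the R-spondin receptor Lgr5 (-1.43, adjusted p = 0.0164) and Lect2 (-0.57, adjusted p = 0.0281). The call of Notum was lost without LDC female 3 (0.0621) or LDC male 1 (0.0609), that of Lgr5 without LDC female 1 or 3 or LDC male 1 (0.0514 to 0.0773), and that of Lect2 without any of 5 of the 12 arrays. In control mice 3 central vein genes were lower and 1 was higher in males, with Slc13a3, a dicarboxylate transporter, at -1.53 (adjusted p = 2.84e-05) and the transcription factor Tbx3 at -1.19 (adjusted p = 0.00592). Of 13 portal vein genes, 2 were higher and 1 lower in LDC males, led by Pck1 of gluconeogenesis (1.08, limma, adjusted p = 0.00214) and the histidine-degrading enzyme Hal (-0.99, adjusted p = 0.00406), and 4 were higher and 1 lower in control males, led by the cytochrome P450 gene Cyp2f2 (0.75, adjusted p = 4.63e-05) and the protease gene Ctsc (-1.13, adjusted p = 0.000552). In LDC against control females 0 of the 100 genes tested over all 7 lists were called by limma, 18 had an unadjusted p under 0.05, where 9.01% of all probe sets tested did, and the methods' t-test called 0. Between the sexes limma called 12 of the 100 in LDC mice and 14 in control mice, and of these the methods' t-test called only Dsp, in control mice.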

How the data were processed

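RNA from 12 livers was hybridised to 1 array each. The authors computed signal intensities with the MAS 5.0 algorithm in GeneSpring 12.6.1, and the deposited intensity table is on a linear scale without detection calls, with a trimmed mean of 500.0 on every array. Arrays carry no read depth, and their number, 3 per group, limits the precision. Each column was mapped to its sample by the labels, and 0 columns were left over. The table has 45101 probe sets, 64 of them controls that were removed. The platform annotation gave the gene symbols, renewed by gene ID from a GRCm38.p6 gene table for 34754 probe sets, and 932 probe sets naming several genes and 9211 naming none gave no gene. Promoter sequences are RefSeq, GRCm38.p6, and matched Cldn1 and Cldn2.

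Intensities were log2 transformed. Probe sets with a mean at or above the 40th percentile were tested (27022, of 12820 named genes). A linear model with 1 mean per group was fitted to all 12 arrays with limma 3.58.1 (R 4.3.3), with 8 residual and 6.35 prior degrees of freedom and an intensity trend, and p-values were adjusted over the 27022 by the Benjamini-Hochberg method. Comparisons were LDC against control in females and males against females within each exposure, and LDC against control in males as a description. The procedure was tested on simulated data. The members, lists and tests were chosen with earlier results of these data known. Every member probe set is accounted for, a gene stands for its brightest probe set, up to 3 genes of each list with the smallest p are named, and so are the 5 genes most correlated with Cdh1. Lists came from general knowledge: adherens, tight and gap junctions, desmosomes, E-cadherin regulators, central and portal vein genes, and markers of hepatocytes and of bile duct, endothelial, stellate, macrophage, lymphocyte and neutrophil, adipocyte, pancreatic acinar and red blood cells. Genes of them without a probe set of their own were not analysed here.

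Alternatives were filters at the 20th and the 60th percentile and none, median centring, quantile normalization, log2(signal + 32), eBayes without a trend, arrayWeights, only the 6 arrays compared, the methods' t-test, a 2-fold change beside an unadjusted p under 0.05, a replicate block, 1 probe set per gene, and leaving out each array. Python 3.11.15 with matplotlib 3.10.9 drew the figures.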

Additional observations from a re-analysis of the deposited data

How the results depend on the processing

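The count of member probe sets called in LDC against control females was 0 under every alternative. In LDC males against LDC females it was 3, and 1 without an intensity trend, 0 with the methods' t-test and 1 at the criterion of at least 2-fold, with 1 to 3 when 1 array was left out (1 without LDC female 2 and 1 without LDC female 3). In control males against control females it was 2, and 1 without a trend, 0 with the methods' t-test and 0 at the 2-fold criterion, with 1 to 6 when 1 array was left out (6 without control female 1, which added Ocln and 3 Cldn3 probe sets, and 1 without control female 3). The Cldn1 calls were lost with the methods' t-test, at an adjusted p of 0.0704 in LDC mice and 0.221 in control mice, and in control mice also at the 2-fold criterion, where its fold was 1.96. The methods state no adjustment of p, so the adjusted t-test is not their own criterion. Ocln in control mice was called with a filter at the 60th percentile (adjusted p = 0.0409), with arrayWeights (0.0474) and on log2(signal + 32). The median of the members in males was -0.15 to 0.02 when 1 array was left out and -0.13 to -0.09 otherwise, and the Cdh1 difference was -1.61 to -1.34 and -1.51 to -1.43.

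Signs turned only for differences that were not called, and the cause was not tested. In LDC against control females these were Cdh1 at 0.04 and Cdh2 at -0.06 without LDC female 3, Cdh2 at -0.04, Gjb2 at 0.02 and Tjp1 at -0.05 without control female 3, Ctnnb1 at -0.05, Gjb1 at -0.08 and Ocln at -0.12 without control female 1, Gjb2 at 0.04 and Tjp1 at -0.01 without control female 2, Gjb2 at 0.11 and Tjp1 at -0.01 without LDC female 1, Ctnnb1 at 0.00 with arrayWeights and Tjp1 at -0.02 with quantile normalization. In control males against control females they were Ctnnb1 and Gjb2, both at 0.02, without control female 3, Gjb1 at -0.18 without control female 1 and -0.02 with median centring, and Gjb2 at 0.03 without control female 2 and 0.08 without control male 1. In LDC males against LDC females Gjb2 was at 0.02 without LDC female 3. Over all 12 arrays left out in turn, the female differences ran from -0.28 to 0.04 for Cdh1, -0.06 to 0.15 for Cdh2, -0.05 to 0.06 for Ctnnb1, -0.08 to 0.33 for Gjb1, -0.16 to 0.11 for Gjb2, -0.05 to 0.08 for Tjp1 and -0.12 to 0.22 for Ocln, those between control mice from -0.09 to 0.02 for Ctnnb1, -0.18 to 0.23 for Gjb1 and -0.19 to 0.08 for Gjb2, and that of Gjb2 between LDC mice from -0.22 to 0.02.

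Replicate numbers did not pair the arrays: deviations of same-numbered arrays from their group means correlated at -0.03 to 0.06. A replicate block left the member counts at 0 in females, 3 between LDC mice and 2 between control mice, and among the list genes named it changed the call of Dsg2 in LDC mice (-0.50, adjusted p = 0.0617). With 3 arrays per group, differences inside the intervals given cannot be resolved.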
